A study of Mus musculus with 14 samples.

Results

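The genes described here handle zinc in the pancreatic islet. They are 6 zinc transporters, 3 metallothioneins and the zinc-sensing transcription factor Mtf1, found in the count tables by gene symbol. All 10 of them (Slc30a8, Slc30a1, Slc30a5, Slc30a7, Slc39a6, Slc39a14, Mt1, Mt2, Mt3 and Mtf1) were present among the 37310 Ensembl gene identifiers of each table. Transporters of the SLC30 family (ZnT proteins) move zinc out of the cytosol, into organelles or out of the cell, whereas transporters of the SLC39 family (ZIP proteins) move zinc into the cytosol. Insulin-secreting β-cells hold much zinc because insulin is stored in the secretory granule as zinc-containing crystals, and ZnT8, the product of Slc30a8, loads that granule. Metallothioneins are small cysteine-rich proteins that bind zinc and copper, and MTF1 binds metal response elements in the promoters of metallothionein genes and of Slc30a1 when cytosolic zinc is high.

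RNA was sequenced from mouse β-cells, whose means of isolation the sources used here do not give, and from islets taken whole, in which other endocrine, vascular and stromal cells are present. Adult β-cells came from wild-type mice at postnatal day 45 (3 libraries), and neonatal β-cells from wild-type mice at postnatal day 6 (3 libraries). Whole islets labelled TSC1 KO came from mice 8 weeks old (2 libraries), and their controls, called RC control after the prefix of the titles, were of the same age (2 libraries). TSC1 is a negative regulator of the growth kinase complex mTORC1, and the design text marks the deletion with the letter β, but the sources used here do not name the driver of the deletion. Whole islets labelled Db came from mice 4 weeks old (2 libraries), and their controls, called BKS control after the prefix of the titles, were of the same age (2 libraries). The sources used here do not name the allele behind the label Db. The strain of every group is given as C57BL/6. Of the 3 neonatal columns, 2 carry the number 3 and none the number 2, and they are called replicates 1, 3a and 3b. Nothing states that libraries of a group came from separate animals, so the p-values refer to spread among these libraries and that spread may be technical.

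Gene counts summed to between 3507929 and 17688772 per library, and the 4 libraries with the lowest totals were those of the TSC1 KO and RC control islets. Insulin reads (Ins1 and Ins2) made up 4.36% to 7.22% of gene counts in adult and 1.83% to 2.62% in neonatal β-cells. Their share of gene counts was 1.05% and 0.969% in the TSC1 KO libraries, against 24.5% and 27.9% in the RC control libraries. It was 48.3% and 45.5% in Db islets, against 61.0% and 70.0% in BKS control islets. The reads of Tsc1 over the whole gene did not separate TSC1 KO islets (31.0 and 34.5 CPM) from RC control islets (25.1 and 54.1 CPM), and the sources used here do not say which exons were deleted, so this gene total is no check of the labels. CPM are the reads of a gene per 1000000 reads of the effective size of its own library, within its own table, so levels set side by side across the 3 tables are descriptions. Adjusted p-values are from the quasi-likelihood test of edgeR with Benjamini-Hochberg adjustment over all genes of a comparison, and a gene with an adjusted p under 0.05 is called higher or lower.

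RefSeq promoter windows of 300 bases (250 before and 50 after the listed gene start, GRCm38.p6) were found for 7 of the 10 genes: Slc30a1, Slc30a5, Slc30a7, Mt1, Mt2, Mt3 and Mtf1. The core of the metal response element was searched as TGCACNC and TGCGCNC on both strands, where N is any base. The 250 bases before the start are shown, 5′ to 3′, for the metallothionein genes and for Slc30a1, because Mt1, Mt2 and Slc30a1 are textbook targets of MTF1, and Mt3, of the same family, had the largest fitted fold change of the 10 genes in Db islets. Capitals mark each match, and a match on the other strand reads GNGTGCA or GNGCGCA.
Mt1, chr8:94178839-94179088, plus strand: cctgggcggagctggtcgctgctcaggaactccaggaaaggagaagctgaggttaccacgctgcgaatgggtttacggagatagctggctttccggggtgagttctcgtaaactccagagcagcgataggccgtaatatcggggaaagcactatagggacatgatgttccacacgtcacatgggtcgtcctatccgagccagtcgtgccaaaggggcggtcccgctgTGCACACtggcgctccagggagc
Mt2, chr8:94172368-94172617, plus strand: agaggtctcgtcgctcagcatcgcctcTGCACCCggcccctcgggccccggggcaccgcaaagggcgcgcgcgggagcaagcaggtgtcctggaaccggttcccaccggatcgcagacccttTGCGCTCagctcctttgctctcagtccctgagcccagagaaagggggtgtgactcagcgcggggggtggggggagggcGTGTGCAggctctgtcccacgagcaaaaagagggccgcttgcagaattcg
Mt3, chr8:94152357-94152606, plus strand: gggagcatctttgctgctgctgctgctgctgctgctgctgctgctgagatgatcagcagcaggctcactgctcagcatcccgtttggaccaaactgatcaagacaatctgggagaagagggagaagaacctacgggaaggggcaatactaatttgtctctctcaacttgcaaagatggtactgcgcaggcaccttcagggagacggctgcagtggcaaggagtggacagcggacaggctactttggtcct
Slc30a1, chr1:191906531-191906780, plus strand: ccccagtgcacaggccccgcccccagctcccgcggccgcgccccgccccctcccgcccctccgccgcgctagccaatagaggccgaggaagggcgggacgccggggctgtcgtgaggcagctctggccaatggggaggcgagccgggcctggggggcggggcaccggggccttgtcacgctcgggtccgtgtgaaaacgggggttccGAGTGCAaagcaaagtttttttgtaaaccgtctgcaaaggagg
The full window held 4 matches in Mt2, 3 in Mt1, 2 in Slc30a1, 1 each in Mt3 and Slc30a5, and 0 in Slc30a7 and Mtf1. Some of these lie in the 50 bases after the listed start, which are not shown. They are 1 of those in Mt2, 2 of those in Mt1, 1 of those in Slc30a1 and the match in Mt3. Whether transcription begins at the listed starts in these cells was not tested. Of 32851 RefSeq promoter windows of the same length, 25.7% held at least 1 match, 7.11% at least 2, 1.97% at least 3 and 0.517% at least 4. A match describes the letters of the window and is not evidence of binding, and no match says only that these letters are not in this window. Mt1, Mt2 and Mt3 lie near each other on chromosome 8.

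Slc30a8 was the most abundant of the 10 transcripts in 3 of the 6 groups when levels were compared per kilobase of the longest transcript. That transcript had 1971 bases for Slc30a8, 1085 for Mt1, 511 for Mt2 and 536 for Mt3. The order depends on these lengths. A shorter Mt1 transcript would raise its level per kilobase, and which transcripts were present was not tested. Its level was 424 ± 55.9 CPM per kilobase in adult and 350.4 ± 75.8 in neonatal β-cells (SD, n = 3 each), and 131 ± 5.78 in BKS control islets (SD, n = 2). In those 3 groups its libraries did not overlap those of the gene next in order, which was Mt1 in adult β-cells (43.9 CPM per kilobase), Slc30a5 in neonatal β-cells (34.4) and Mt2 in BKS control islets (72.6). In TSC1 KO islets Mt1 and Mt2 led (130.1 and 125 CPM per kilobase, with overlapping libraries) and Slc30a8 came next at 19.4. In RC control islets Mt2, Mt1 and Slc30a8 had 289, 236 and 215 CPM per kilobase, each overlapping the next. In Db islets the 3 metallothioneins Mt2, Mt1 and Mt3 filled the first places (129.9, 122 and 80.01 CPM per kilobase) and Slc30a8 came after them at 21.7. The other transporters and Mtf1 lay between 5.601 and 34.42 CPM per kilobase in the β-cell groups and between 1.44 and 9.74 in the islet groups.

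**Figure D1:**
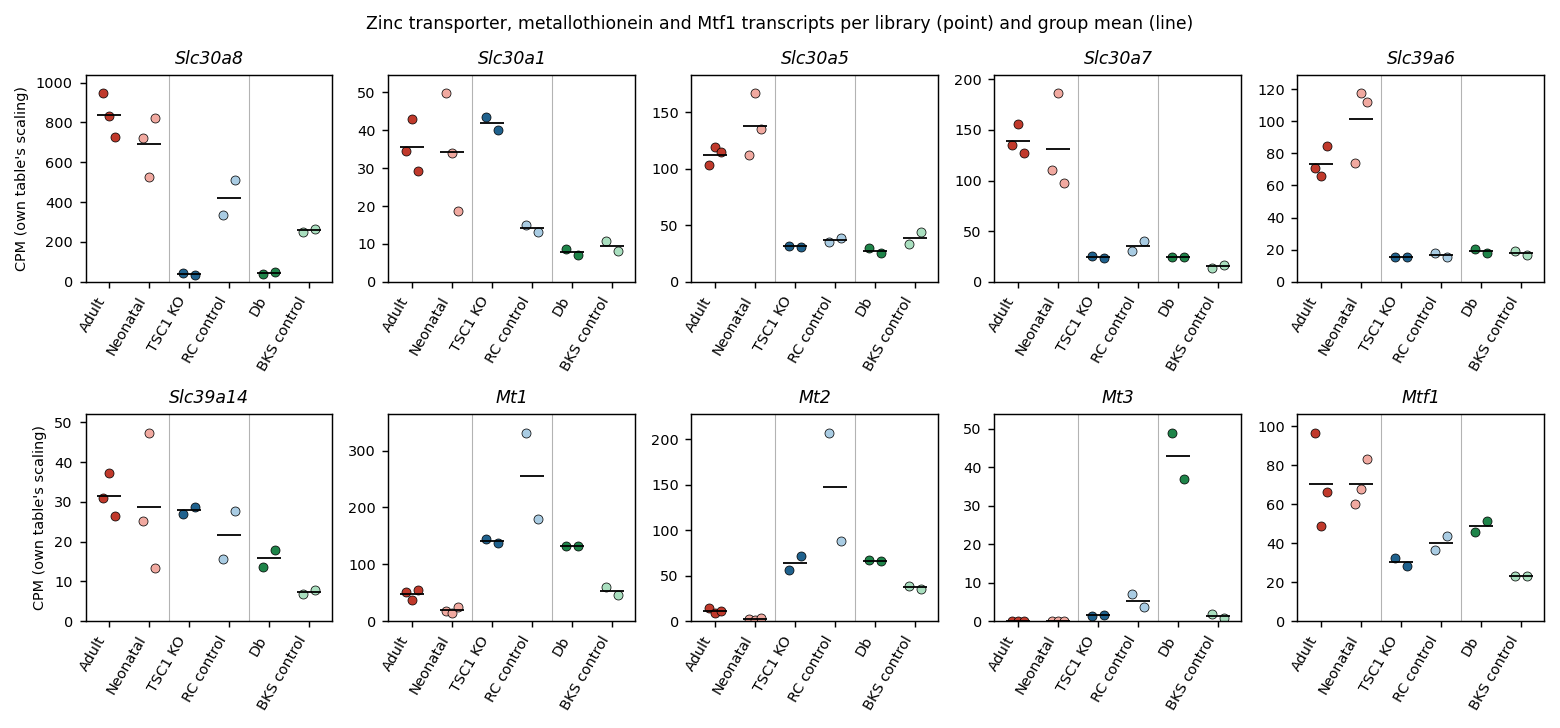
CPM of each gene (y axis, from 0, a scale of its own per gene) in every library (points) with the group mean (line), for Adult and Neonatal β-cells, TSC1 KO and RC control islets, and Db and BKS control islets; grey lines part the 3 tables. Slc30a8 is low in both TSC1 KO and Db islets beside their controls, Slc30a1 is high in TSC1 KO islets, and Mt3 is high in Db islets.

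In β-cells, 1 of the 9 genes that could be tested was called between adult and neonatal libraries, and it was Mt1, higher in adults. Over all 14304 genes tested 6.98% were called, 3.38% higher and 3.6% lower. The median log2 fold change of the 9 genes was 0.09, against -0.03 over all genes tested. Mt1 had 51.1, 36.8 and 54.9 CPM in adult β-cells, against 18.3, 13.9 and 25.4 CPM in neonatal β-cells. Every adult library lay above every neonatal one, by a fitted 2.48-fold (log2 1.31 ± 0.32 SE, adjusted p = 0.0200). The call was lost without adult replicate 1 (adjusted p = 0.0983), without adult replicate 3 (0.115) or without neonatal replicate 1 (0.0583), and the adjusted p ranged from 0.00268 to 0.115 over 11 alternatives. Beside this difference, the summed level of 9 β-cell markers was 54360 to 90070 CPM in adult and 23580 to 32820 CPM in neonatal β-cells, with 5 of the 9 called higher. Most of this sum is Ins1 and Ins2 (19830 and 46110 CPM on average in adult β-cells). The 8 duct markers summed to 430.5 to 545 CPM in adult and 767.5 to 998 CPM in neonatal β-cells, with 4 of 8 called lower. The 10 markers of other endocrine cells summed to 608 to 2488 CPM in adult and 1322 to 2597 CPM in neonatal β-cells, with 2 of 9 tested called lower. The part of these markers in the result was not tested.

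Mt2, a close relative of Mt1, was also above the neonatal range in all 3 adult libraries but was not called. It had 14.1, 8.35 and 10.8 CPM in adult β-cells, against 2.60, 1.01 and 3.83 CPM in neonatal β-cells, where 15 to 63 reads per library stood behind the value. The log2 fold change was 2.15 ± 0.71 SE (adjusted p = 0.0821, and 0.02 to 0.357 over 11 alternatives, the lowest with DESeq2). Mt3, a metallothionein best known from the brain, had 0 reads in all 6 β-cell libraries, which allows up to 0.185 to 0.236 CPM per library (3 counts).

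No transporter was called between the ages, and for each of them the adult and neonatal libraries overlapped. Slc30a8 had 946, 834 and 726 CPM in adult β-cells, against 724, 527 and 820.4 CPM in neonatal β-cells, with overlapping groups (log2 fold change 0.27 ± 0.17 SE, adjusted p = 0.403). Slc30a5 and Slc30a7, whose products ZnT5 and ZnT7 move zinc into the early secretory pathway, averaged 112 ± 8.06 and 139.6 ± 14.4 CPM in adult β-cells and 138 ± 27.6 and 131 ± 47.9 CPM in neonatal β-cells (SD, n = 3 each). Slc39a6, which encodes the importer ZIP6, averaged 73.6 ± 9.72 CPM in adult and 101 ± 23.8 CPM in neonatal β-cells (log2 -0.46 ± 0.22 SE, adjusted p = 0.26). Mtf1 averaged 70.5 ± 24.2 and 70.3 ± 11.9 CPM in adult and neonatal β-cells, a log2 difference of 0.00 ± 0.26 SE. The remaining transporters, Slc30a1 and Slc39a14, had adjusted p-values of 0.955 and 0.897, and their neonatal libraries ranged from 18.8 to 49.8 CPM and from 13.4 to 47.4 CPM.

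In TSC1 KO islets, Slc30a8 fell and Slc30a1, which encodes the exporter ZnT1 of the plasma membrane, rose. These were the 2 of 10 genes called, beside 18.6% of all 14515 genes tested (8.63% higher, 10.0% lower). Slc30a8 had 44.5 and 31.8 CPM in TSC1 KO islets, against 335 and 511 CPM in RC control islets. The groups lay far apart, with a fitted level 11.1-fold lower in TSC1 KO islets (log2 -3.47 ± 0.36 SE, adjusted p = 0.0106). Slc30a1 went the other way, with 43.6 and 40.1 CPM in TSC1 KO islets, against 15.01 and 13.24 CPM in RC control islets (2.96-fold, log2 1.57 ± 0.21 SE, adjusted p = 0.0128). Its antisense gene 1700034H15Rik, on the other strand, averaged 3.22 ± 1.71 CPM in TSC1 KO and 3.16 ± 1.57 CPM in RC control islets (SD, n = 2 each). Both calls were lost without either TSC1 KO library, where edgeR called 0 genes of the whole table, although 3535 genes without TSC1 KO replicate 1 and 3061 without TSC1 KO replicate 2 had an unadjusted p under 0.05. Over 10 alternatives the adjusted p ranged from 2.02e-17 to 0.148 for Slc30a8 and from 0.000529 to 0.148 for Slc30a1, and the log2 fold change from -3.74 to -3.13 and from 1.32 to 1.66.

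The 3 metallothioneins were all lower in the TSC1 KO libraries than in the RC control libraries, without passing the test. Of all genes tested, 67.7% did not overlap between these groups. Mt1 had 145 and 137 CPM in TSC1 KO islets, against 332 and 179.6 CPM in RC control islets, and the 2 controls differed from each other by more than the lower of them did from the TSC1 KO libraries. The same held for Mt2, with 56.6 and 71.2 CPM in TSC1 KO islets, against 207 and 88.1 CPM in RC control islets. Mt3 was scarce, with 6 and 5 reads (1.40 and 1.67 CPM) in TSC1 KO islets, against 44 and 24 reads (6.95 and 3.53 CPM) in RC control islets. The log2 fold changes were -0.86 ± 0.35, -1.21 ± 0.43 and -1.77 ± 0.58 SE (adjusted p = 0.134, 0.106 and 0.0842). Without RC control replicate 2 all 3 were called lower (adjusted p = 0.0136, 0.00614 and 0.0468), and over all 10 alternatives the adjusted p reached 0.444, 0.374 and 0.305.

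The remaining zinc genes were not called in TSC1 KO islets. Slc30a5 had 31.9 and 30.8 CPM in TSC1 KO islets, against 35.1 and 38.8 CPM in RC control islets, and Slc30a7 had 25.4 and 23.4 CPM, against 30.5 and 39.9 CPM. The libraries of both genes did not overlap between the groups, with log2 fold changes of -0.24 ± 0.19 and -0.53 ± 0.23 SE. Mtf1 had 32.4 and 28.1 CPM in TSC1 KO islets, against 36.2 and 43.7 CPM in RC control islets (adjusted p = 0.229). It overlaps 1110065P20Rik on the other strand, which averaged 12.4 CPM in TSC1 KO and 25.7 CPM in RC control islets. That gene was itself called lower (log2 -1.06, adjusted p = 0.0281 in edgeR), in 6 of 10 alternatives. How far its reads enter the value of Mtf1 was not tested. The importers Slc39a6 (15.6 and 15.4 CPM in TSC1 KO islets, against 17.7 and 15.5 CPM in RC control islets) and Slc39a14, which encodes ZIP14, a carrier of zinc and of non-haem iron (27.0 and 28.8 CPM, against 15.6 and 27.7 CPM), had adjusted p-values of 0.803 and 0.441. In all, 8 of the 10 genes did not overlap between the groups, near the 67.7% of all genes tested that did not overlap (18.6% were called), which is no result about these genes in particular. The median log2 fold change of the 10 genes was -0.46, against -0.003 over all genes tested.

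Beside the lower level of Slc30a8, other β-cell genes were lower too. The summed level of 9 β-cell markers was 12810 to 13330 CPM in TSC1 KO islets and 234700 to 265000 CPM in RC control islets, with 8 of 9 called lower. Most of this sum is Ins1 and Ins2 (78540 and 162000 CPM on average in RC control islets), so it largely repeats the insulin share. In bulk islets, fewer β-cells and less RNA per β-cell cannot be told apart. Marker lists of other tissues were also compared, where 18.6% of all genes were called (8.63% higher, 10.0% lower). The 10 stomach genes summed to 196 to 323 CPM in TSC1 KO islets and 24.4 to 28.1 CPM in RC control islets. Of 5 tested, 4 were called higher. Gkn1, Gkn2, Tff1 and Muc5ac were at 0 in both groups and Gif at 0 in TSC1 KO islets. The 8 duct genes summed to 2555 to 3581 CPM in TSC1 KO and 428 to 1334 CPM in RC control islets (2 of 8 higher). The 7 endothelial markers summed to 3551 to 4786 CPM in TSC1 KO and 2316 to 2571 CPM in RC control islets (2 of 7 higher). The 10 markers of other endocrine cells summed to 3177 to 7887 CPM in TSC1 KO and 28310 to 33970 CPM in RC control islets (1 higher, 6 lower of 9 tested). The 9 mesenchymal markers summed to 1336 to 5038 CPM in TSC1 KO islets and 956 to 1280 CPM in RC control islets, and 0 of the 9 were called by edgeR, DESeq2 or limma-voom, with 3 at an unadjusted p under 0.05 in edgeR. The 12 acinar markers summed to 1307 to 3338 CPM in TSC1 KO and 2130 to 3206 CPM in RC control islets. The 9 immune markers summed to 698 to 864 CPM in TSC1 KO and 620 to 943 CPM in RC control islets. The 6 erythroid markers summed to 121 to 213 CPM in TSC1 KO and 42.2 to 119 CPM in RC control islets. Of these lists 0 of 10, 0 of 7 and 0 of 5 tested markers were called. The part of all these markers in the levels of Slc30a8 and Slc30a1 was not tested.

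In Db islets, 7 of the 10 genes were called: Slc30a8 fell, and Slc30a7, Slc39a14, Mt1, Mt2, Mt3 and Mtf1 rose. Over all 14369 genes tested 48.2% were called, 24.3% higher and 23.9% lower. The median log2 fold change of the 10 genes was 0.77, against -0.03 over all genes. Slc30a8 had 36.7 and 48.9 CPM in Db islets, against 249.8 and 266 CPM in BKS control islets. Both Db libraries lay below both controls, with a fitted level 6.03-fold lower (log2 -2.59 ± 0.22 SE, adjusted p = 2.12e-10). The call held under all 10 alternatives, with log2 fold changes of -2.80 to -2.27.

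Of the 10 genes, Mt3 had the largest fitted fold change in Db islets. It had 48.9 and 36.8 CPM (885 and 760 reads) in Db islets, against 1.71 and 0.90 CPM (16 and 7 reads) in BKS control islets. The groups lay far apart and the fitted level was 31.9-fold higher (log2 fold change 4.995 ± 0.31 SE, adjusted p = 8.86e-13), with log2 fold changes of 4.67 to 5.59 under 10 alternatives, all called. Mt1 had 132.7 and 132.6 CPM in Db islets, against 60.6 and 45.6 CPM in BKS control islets (2.50-fold, log2 1.32 ± 0.21 SE, adjusted p = 8.00e-06). Mt2 had 67.1 and 65.6 CPM in Db islets, against 38.8 and 35.4 CPM in BKS control islets (1.79-fold, log2 0.84 ± 0.20 SE, adjusted p = 0.00105). No Db library overlapped a control for any of the 3 metallothioneins, where 74.7% of all genes tested did not overlap. The calls of Mt1 and Mt2 also held under all 10 alternatives.

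Mtf1, which encodes the activator of metallothionein genes, rose as well. It had 45.8 and 51.4 CPM in Db islets, against 22.9 and 23.2 CPM in BKS control islets (2.11-fold, log2 1.08 ± 0.21 SE, adjusted p = 0.00011). Mtf1 overlaps 1110065P20Rik on the other strand, and the sources used here do not say whether the counting used strand. That partner averaged 70.7 ± 2.87 CPM in Db and 68.5 ± 4.79 CPM in BKS control islets (SD, n = 2 each), a log2 difference of 0.05 ± 0.20 SE. Slc39a14 had 13.7 and 18.0 CPM in Db islets, against 6.85 and 7.83 CPM in BKS control islets (2.16-fold, log2 1.11 ± 0.25 SE, adjusted p = 0.000754).

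Among the exporters, Slc30a7 had 24.3 and 24.7 CPM in Db islets, against 13.9 and 16.3 CPM in BKS control islets (1.62-fold, log2 0.70 ± 0.22 SE, adjusted p = 0.00995). Its groups did not overlap, and the call was lost without Db replicate 2 (adjusted p = 0.0556, the highest of 10 alternatives, the lowest being 0.0025). Slc30a5 had 29.6 and 25.6 CPM in Db islets, against 33.6 and 44.3 CPM in BKS control islets, and just missed the threshold (log2 -0.50 ± 0.21 SE, adjusted p = 0.0516). It passed without BKS control replicate 1 (adjusted p = 0.00998), and the 10 alternatives reached 0.716. Slc30a1 had 8.68 and 7.03 CPM in Db islets, against 10.7 and 8.09 CPM in BKS control islets, and Slc39a6 had 20.1 and 18.0 CPM, against 19.3 and 16.9 CPM. The groups overlapped for both (adjusted p = 0.421 and 0.81), so 8 of the 10 genes did not overlap between Db and BKS control islets, near the 74.7% of all genes tested that did not overlap (48.2% were called). Slc39a6 overlaps Elp2 on the other strand, which fell in Db islets (9.88 CPM in Db and 24.8 CPM in BKS control islets, log2 -1.33, adjusted p = 2.63e-05 in edgeR).

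Marker lists of cell types were also compared between Db and BKS control islets, where 48.2% of all genes were called (24.3% higher, 23.9% lower). The 9 β-cell markers summed to 427600 to 494600 CPM in Db and 599700 to 920200 CPM in BKS control islets, with 1 called higher and 6 lower. Most of this sum is Ins1 and Ins2 (185000 and 564500 CPM on average in BKS control islets). The 12 acinar markers summed to 129.7 to 287 CPM in Db and 21.95 to 25.4 CPM in BKS control islets, with 6 of the 9 tested higher, 1 lower and Ptf1a at 0 in the controls. The 8 duct markers summed to 931 to 939 CPM in Db and 423 to 430.1 CPM in BKS control islets (3 higher, 2 lower of 7 tested), and the 10 markers of other endocrine cells to 9523 to 11030 CPM in Db and 4038 to 7865 CPM in BKS control islets (2 higher, 1 lower of 9 tested). The 9 mesenchymal markers summed to 544 to 582 CPM in Db and 287 to 393 CPM in BKS control islets (5 higher, 1 lower of 8 tested). The 7 endothelial markers summed to 561 to 566 CPM in Db and 792 to 831.5 CPM in BKS control islets (2 higher, 4 lower of 7). The 9 immune markers summed to 59.7 to 75.2 CPM in Db and 68.7 to 89.7 CPM in BKS control islets. Of 6 tested, 1 was called lower. The 6 erythroid markers summed to 38.7 to 59.3 CPM in Db and 10.3 to 18.1 CPM in BKS control islets. Of 5 tested, 4 were called higher. The 10 stomach genes summed to 1.22 to 2.13 CPM in Db and 6.85 to 6.93 CPM in BKS control islets. The 1 tested was called lower. The part of all these markers in the levels of the metallothioneins, Mtf1 and the transporters was not tested.

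**Figure D2:**
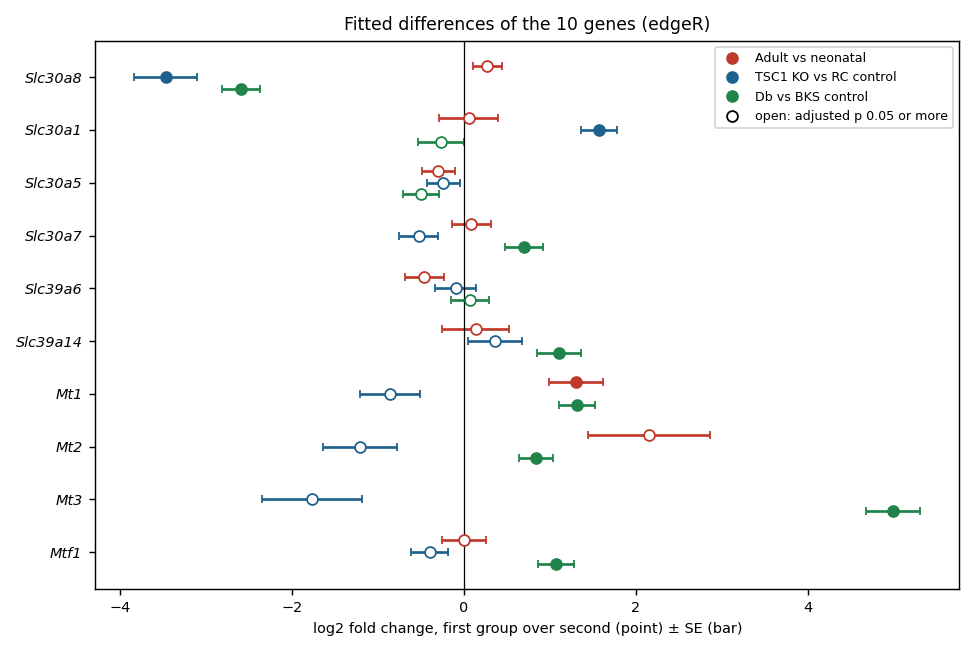
Fitted log2 fold change of each gene (x axis, points, bars are ± SE), Adult over Neonatal β-cells in red (n = 3 each), TSC1 KO over RC control islets in blue and Db over BKS control islets in green (n = 2 each); open points have an adjusted p of 0.05 or more in edgeR, and Mt3 was not tested in β-cells. Slc30a8 lies at -3.47 and -2.59 in the islet comparisons, and the metallothioneins lie left of 0 in TSC1 KO islets and right of it in Db islets.

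The effects of TSC1 KO and Db on the 10 genes were compared by a joint edgeR fit of the 8 islet libraries, which have no library in common between the comparisons. The TSC1 KO effect differed from the Db effect for 6 of the 10 genes, higher for 1 and lower for 5, beside 31.8% of all 15702 genes tested (13.2% higher, 18.6% lower). All 3 metallothioneins were among the 5, with differences in log2 fold change of -2.26 ± 0.39 SE for Mt1 (adjusted p = 0.00112), -2.14 ± 0.47 for Mt2 (0.00714) and -6.86 ± 0.60 for Mt3 (2.17e-05). Mtf1 differed by -1.56 ± 0.29 (adjusted p = 0.0018), as did its partner on the other strand, 1110065P20Rik, by -1.19 ± 0.29 (0.0078), and Slc30a7 by -1.31 ± 0.31 (0.00728). Slc30a1 differed in the other direction, by 1.74 ± 0.35 (adjusted p = 0.0027). For Slc30a8, which fell in both, the difference of -0.96 ± 0.38 did not pass (adjusted p = 0.0707), although it passed with library size alone as scaling (0.0371), without a filter on low counts (0.0127) and without RC control replicate 1 (0.00585), within a range of 0.00585 to 0.268 over 14 alternatives. The remaining genes, Slc30a5, Slc39a6 and Slc39a14, had adjusted p-values of 0.694, 0.56 and 0.135. Age, table and label differ together between the islet experiments and cannot be told apart in this contrast.

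Ratios of reads within a library do not depend on how libraries are scaled, and they set Slc30a8 beside the cargo of the granule it loads. Slc30a8 had 12.6, 10.6 and 16.4 reads per 1000 insulin reads in adult β-cells, against 29.1, 23.5 and 48.0 in neonatal β-cells, so every adult library lay below every neonatal one. In TSC1 KO islets it had 4.125 and 2.795 reads per 1000 insulin reads, against 1.48 and 2.01 in RC control islets, so its share beside insulin was higher in TSC1 KO islets although its own level was lower. In Db islets it had 0.0812 and 0.125, against 0.424 and 0.292 in BKS control islets, so its share beside insulin was lower in Db islets.

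The reads of 13 other granule genes (Iapp, Chga, Chgb, Scg2, Scg3, Scg5, Pcsk1, Pcsk2, Cpe, Pam, Ptprn, Ptprn2 and Vgf) gave another yardstick. Slc30a8 reads came to 0.917% and 0.820% of theirs in TSC1 KO islets, against 1.84% and 2.05% in RC control islets. In Db islets they came to 0.0427% and 0.0624%, against 0.804% and 0.885% in BKS control islets, and in adult β-cells to 1.35% to 2.03%, against 1.74% to 2.29% in neonatal β-cells. Slc30a8 was thus lower beside the summed reads of these genes in both islet comparisons, and the β-cell groups overlapped. Iapp and Chga had the highest mean levels of the 13 in RC control islets (7142 and 6405 CPM) and weigh most in the sum. In TSC1 KO islets Pcsk2 and Ptprn fell about as much as Slc30a8 (log2 -3.42 and -3.35, beside -3.47), and the others fell less. In Db islets Iapp averaged 39100 CPM, against 7665 CPM in BKS control islets, so the sum moved as well. Among the reads of all SLC30 genes, Slc30a8 made up 20.6% and 16.1% in the TSC1 KO libraries, against 66.0% and 73.6% in the RC control libraries. It made up 25.1% and 33.2% in the Db libraries, against 70.0% and 69.3% in the BKS control libraries.

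The balance between metallothioneins differed between the tables. Mt1 had 3.621, 4.402 and 5.081 reads per Mt2 read in adult β-cells, against 7.025, 13.8 and 6.635 in neonatal β-cells, without overlap. The TSC1 KO islets had ratios of 2.56 and 1.93, against 1.60 and 2.04 in RC control islets, with overlap. The Db islets had ratios of 1.98 and 2.02, against 1.56 and 1.29 in BKS control islets, without overlap. Mt3 made up 19.7% and 15.7% of the reads of Mt1, Mt2 and Mt3 together in Db islets, against 1.695% and 1.097% in BKS control islets. In TSC1 KO islets it made up 0.688% and 0.796%, against 1.27% and 1.30% in RC control islets. These ratios were not tested.

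**Figure D3:**
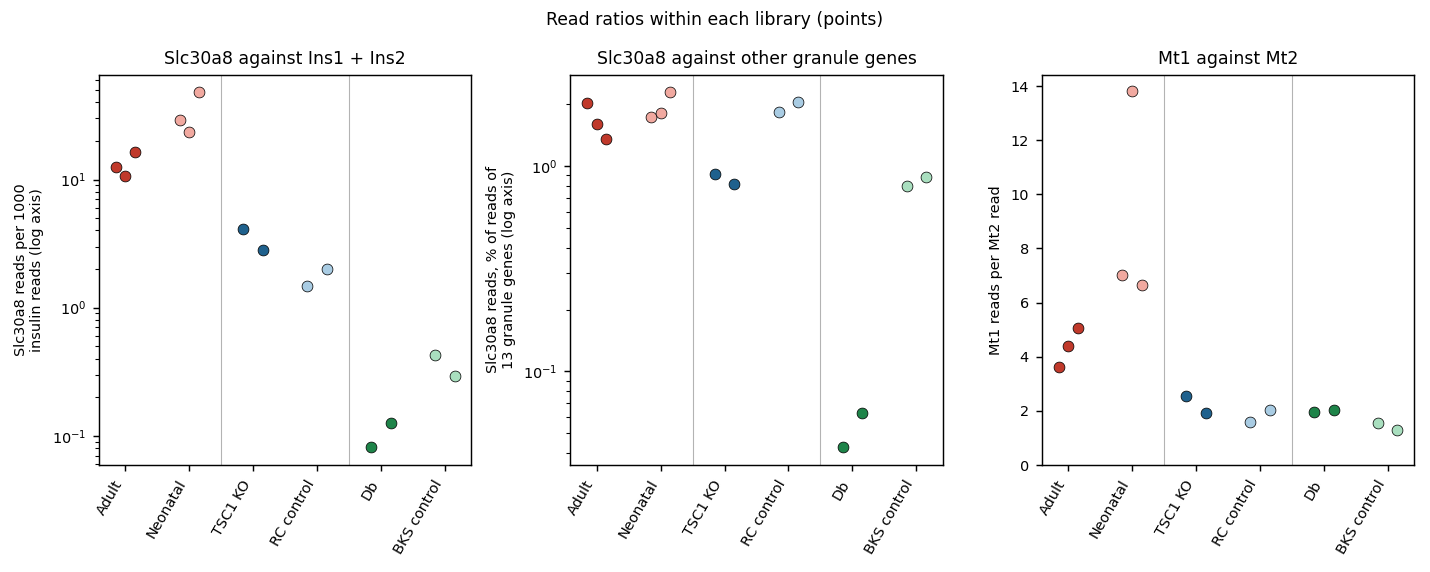
Ratios within each library (points): Slc30a8 reads per 1000 reads of Ins1 and Ins2 (left, log axis), Slc30a8 reads in percent of the reads of 13 other granule genes (middle, log axis) and Mt1 reads per Mt2 read (right). In the left panel TSC1 KO islets lie above RC control islets and Db islets below BKS control islets, and in the middle panel both TSC1 KO and Db islets lie below their controls.

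The granule genes themselves did not follow Slc30a8 in both islet comparisons. Of 15 genes of granule cargo and processing, 14 were called lower in TSC1 KO islets, where 10.0% of all genes were (median log2 fold change -2.70), and the lowest p-values were those of Ins2, Ins1 and the carboxypeptidase Cpe (log2 -5.06, -3.66 and -2.58). In Db islets 10 of the 15 were called higher and 1, Ins2, lower (log2 -0.93), with a median of 1.159, where 24.3% of all genes were called higher and 23.9% lower. The lowest p-values there were those of the neuropeptide precursor Vgf, the granin Chgb and the granule membrane protein Ptprn, with log2 fold changes of 3.10, 3.20 and 2.41. Ins2 is named in Db islets after its value was seen, and its call held in only 4 of its 9 alternatives. Without either TSC1 KO library the count in TSC1 KO islets was 0, as it was for all genes, and leaving out 1 library gave 9 to 12 calls in Db islets. In adult β-cells 9 of the 15 were called higher than in neonatal β-cells, where 3.38% of all genes were (median 0.56), among them Ins2, Scg5 and Ins1 with 1.60, 0.88 and 1.65, against 3 with library size alone as scaling and 3 to 12 with a library left out, the lowest without adult replicate 2. The difference between the TSC1 KO and Db effects was called lower for 15 of 15, where 18.6% of all genes were, with the lowest p-values for Vgf, Chgb and Scg5 (-5.605, -6.03 and -3.77).

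A further 21 genes of zinc transport and zinc sensing were followed, and in β-cells 12 of them could be tested, of which edgeR called 0 between adult and neonatal libraries, where it called 6.98% of all genes. At an unadjusted p under 0.05 it found 1, the zinc efflux gene Tmem163 with 89.3 CPM in adult and 141.6 CPM in neonatal β-cells, DESeq2 called 1 lower and limma-voom 0. In TSC1 KO islets 2 of 13 tested were called, near the 18.6% of all genes called. Tmem163 had 3.03 and 1.67 CPM in TSC1 KO islets, against 29.9 and 42.2 CPM in RC control islets (log2 -3.87 ± 0.37 SE, adjusted p = 0.0105). Slc39a8, which encodes ZIP8, a carrier of zinc and manganese, had 8.16 and 13.7 CPM in TSC1 KO islets, against 1.58 and 0.883 CPM in RC control islets (log2 3.12 ± 0.52 SE, adjusted p = 0.0182). Both calls were lost without either TSC1 KO library, with adjusted p-values over 10 alternatives of 2.33e-09 to 0.148 for Tmem163 and 0.000739 to 0.165 for Slc39a8. The list had 6 calls without RC control replicate 1, and 1 higher and 2 lower with library size alone as scaling. The median of the 13 was 0.07.

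In Db islets 9 of 14 tested were called, 6 higher and 3 lower, with a median of 0.51, where 48.2% of all genes were called (24.3% higher, 23.9% lower). Slc39a11, which encodes ZIP11, had 97.5 and 85.2 CPM in Db islets, against 6.53 and 6.55 CPM in BKS control islets (13.95-fold, log2 3.80 ± 0.23 SE, adjusted p = 7.2e-13). It overlaps Cog1, which was not called (59.6 CPM in Db and 49.5 CPM in BKS control islets), and Sstr2, which had too few reads to be tested, on the other strand. Slc39a13, which encodes ZIP13, had 111 and 106 CPM in Db islets, against 28.2 and 27.2 CPM in BKS control islets (3.92-fold, log2 1.97 ± 0.21 SE, adjusted p = 1.23e-08), and it overlaps Psmc3 on the other strand, which was itself called higher (67.9 CPM in Db and 28.3 CPM in BKS control islets, log2 1.26). How far reads of Psmc3 enter the value of Slc39a13 was not tested. Slc39a7 (log2 1.21), Slc30a4 (1.06), Slc39a3 (0.69) and Slc39a9 (0.57) were the others that rose, the last in 7 of 10 alternatives. Slc30a4 overlaps 4930417H01Rik on the other strand, which was called higher as well (2.515 CPM in Db and 0.278 CPM in BKS control islets, log2 3.07). Slc39a9 overlaps Erh on the other strand, with 8.98 CPM in Db and 5.73 CPM in BKS control islets (log2 0.66). Erh just missed the threshold (adjusted p = 0.0507 in edgeR) and was called in 4 of 10 alternatives. Slc39a8 fell by 2.30 on the log2 scale, with 0.608 and 1.07 CPM in Db islets, against 4.39 and 3.98 CPM in BKS control islets, and Slc39a10, an importer of the plasma membrane, and Slc30a9 fell by 1.38 and 0.55, with Slc30a9 called in 4 of 10 alternatives. With library size alone as scaling 7 were higher and 2 lower. Slc39a7 averaged 0.618 ± 0.545 CPM in TSC1 KO and 1.79 ± 1.63 CPM in RC control islets (SD, n = 2 each). These were too few reads to be tested on their own, and its difference between the islet effects rests in part on them. The TSC1 KO effect differed from the Db effect for 8 of 16 tested, against 31.8% of all genes. It was higher for Slc39a8 (5.33) and Slc39a10 (2.15). It was lower for Slc39a11 (-3.71), Tmem163 (-3.72), Slc39a13 (-2.71), Slc39a7 (-2.97), Slc30a4 (-1.08) and Slc39a3 (-0.90). The last 3 of these were called in 7, 5 and 7 of 14 alternatives, and the list had 5 to 11 calls with a library left out, from 5 without BKS control replicate 1 to 11 without RC control replicate 1.

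**Figure D4:**
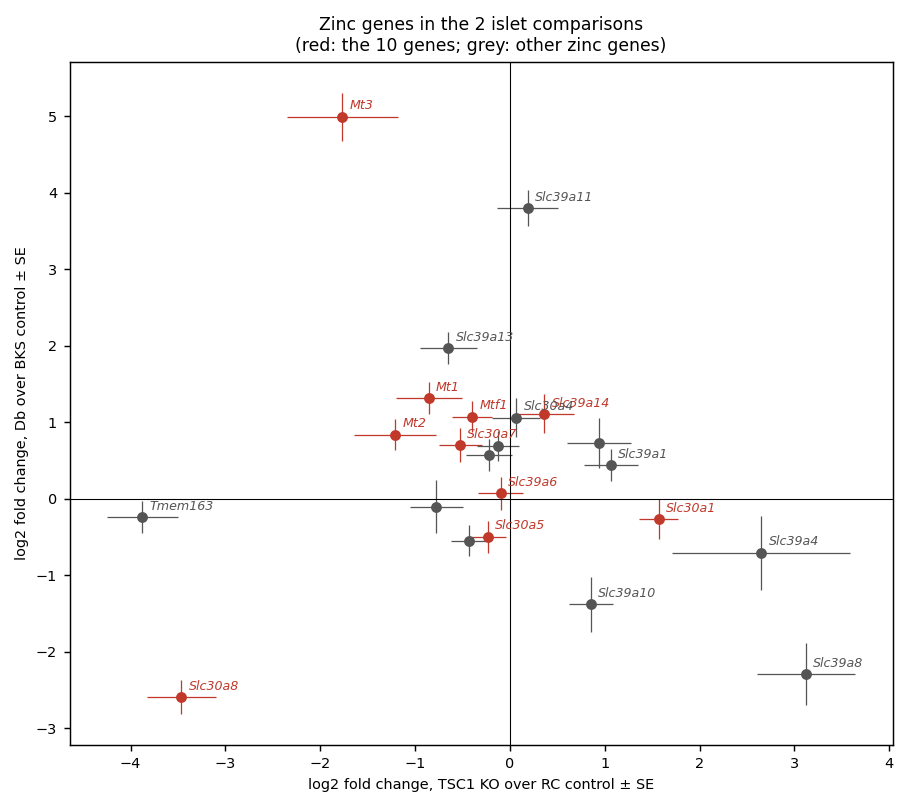
Log2 fold change of 23 zinc genes, TSC1 KO over RC control islets (x axis) against Db over BKS control islets (y axis), bars ± SE, with the 10 genes in red and the other zinc genes tested in both comparisons in grey. Slc30a8 is low on both axes, Mt3 and Slc39a11 lie at the top (4.995 and 3.80 in Db islets), and Slc39a8 at the lower right (3.12 and -2.30).

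Genes whose levels ran most like those of Slc30a8 and Mt1 were ranked by Pearson correlation over the 14 libraries, on log2(CPM + 1) values standardised within each table, among 8274 genes. The libraries share these tables and groups, so the values are descriptions. Slc30a8 ran most like Elavl4, a neuronal-type RNA-binding protein (r = 0.972), Plpbp (0.962), Tbce (0.961), Gm12396 (0.959) and Taz (0.948). Elavl4 had 2.23 CPM on average in TSC1 KO islets, against 19.1 CPM in RC control islets, and 3.93 CPM in Db islets, against 6.75 CPM in BKS control islets. Mt1 ran most like its neighbour Mt2 (r = 0.984), followed by Ntpcr (0.964), Vps53 (0.934), Abtb1 (0.931) and G6pc3 (0.92). Between Slc30a8 and Mt1 the value was 0.227, and between Mt1 and Mtf1 it was 0.488.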

How the data were processed

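Raw whole-number read counts per Ensembl gene, deposited by the authors in 3 tables, were used as they stand. DESeq2 1.16.0, HTSeq 0.7.1, GSNAP and cutadapt 1.13 are the tools that the submitters' processing notes list, with the builds NCBIM37 and mm9, and no roles. Per the labels' protocols, libraries were made from total RNA with a SMARTer stranded kit. The sources used here do not say whether counting used strand.

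Symbols and the longest transcripts came from GENCODE M21 (GRCm38), which gave 32620 of 37310 identifiers a symbol. Transcript lengths are of that build. Of the 50-base words of the longest transcript, 2.4% in Slc30a5 and 0.364% in Slc30a8 also occur in another gene, and 0% in the others. Slc30a1, Slc39a6, Slc30a7, Mt2 and Mtf1 overlap other genes on the opposite strand, and Mtf1 also n-R5s192 on its own strand. In the tables of the β-cells and of the Db islets, rows that name no gene, kept out of library sizes, left 24.52% to 43.11% and 35.1% to 44.27% of reads for genes. The TSC1 KO table used here has no such rows.

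Fits were made per table in R 4.3.3 with edgeR 4.0.16 (filterByExpr with minimum count 10 and total 15, TMM, robust quasi-likelihood F test, two-sided, Benjamini-Hochberg, threshold 0.05), and the difference of the islet effects with a term per table. The fits were tried on simulated counts with the same spread for every gene and few changed genes. Those settings differ from the data, so the trial gives no error rates for them. Alternatives were library size alone, no insulin and mitochondrially encoded genes, DESeq2 1.42.0, limma-voom (limma 3.58.1), no filter, a replicate block and each library left out. Floors of 3 counts cover counting error only.

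The 10 genes, the gene lists (granule, other zinc genes, metal and oxidative stress) and the marker lists were chosen with earlier results of these data known. Named were all 10 genes, each called gene of the other zinc list, the 3 called genes of lowest p in each other list per comparison, and the 5 genes most like Slc30a8 and Mt1 with a mean of at least 5 CPM in each table. Further genes are named as genes that overlap these, or as markers.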

Additional observations from a re-analysis of the deposited data

Results flagged for a closer look

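For 6 of the 10 genes the log2 change in TSC1 KO islets, relative to RC control islets, differed from the log2 change in Db islets, relative to BKS control islets, by the edgeR test of the difference itself. The differences were 1.74 for Slc30a1, -1.31 for Slc30a7, -2.26 for Mt1, -2.14 for Mt2, -6.86 for Mt3 and -1.56 for Mtf1. All 6 were called under each of 14 alternatives, over which they ranged from 1.30 to 1.91 for Slc30a1, -1.80 to -1.14 for Slc30a7, -2.70 to -1.85 for Mt1, -2.66 to -1.49 for Mt2, -7.42 to -6.39 for Mt3 and -2.03 to -1.45 for Mtf1. Of the underlying changes, that of Slc30a1 passed the test in TSC1 KO islets and those of the other 5 genes in Db islets.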

How the results depend on the processing

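Over 439 alternative log2 fold changes of 39 gene and comparison pairs, 403 kept direction and side of the threshold, and 0 of the 16 called pairs changed direction. The count of called genes between adult and neonatal β-cells was 1, but 2 with DESeq2 and 0 to 1 with a library left out (0 without adult replicate 1, adult replicate 3 or neonatal replicate 1, where 1, 2 and 4 genes had an unadjusted p under 0.05 in edgeR). Between TSC1 KO and RC control islets it was 2, and 0 to 5 with a library left out, where the lone library of a group is assumed to vary like the others. In Db islets it ranged from 6 to 8, and for the difference between the islet effects from 6 to 8. With library size alone as scaling, the median of all genes moved to -0.19 in adult β-cells, -0.25 in TSC1 KO islets, 0.29 in Db islets and -0.47 for the difference between islet effects, and log2 fold changes move with it. Directions turned only where no call was made. In adult β-cells these were, with library size alone, Slc30a1 (-0.11), Slc30a7 (-0.079), Slc39a14 (-0.025) and Mtf1 (-0.166), and Mtf1 with DESeq2 (-0.008) and limma-voom (-0.035). With a library left out, values there ran from -0.231 to 0.435 for Slc30a1, -0.085 to 0.427 for Slc30a7, -0.197 to 0.715 for Slc39a14 and -0.295 to 0.216 for Mtf1. Elsewhere they were Slc39a6 in TSC1 KO islets (-0.193 to 0.007 with a library left out), Slc30a1 in Db islets (0.019 with library size alone) and Slc30a5 in the difference (-0.322 with library size alone, -0.063 to 0.359 with a library left out). The cause was not tested.

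Deviations of same-numbered islet libraries from their group means had an r of -0.0547 in the TSC1 KO table and -0.0351 in the Db table. With 2 libraries per group, the deviations within a group mirror each other, so r cannot decide whether the numbers pair libraries. With a replicate block the counts of called genes were 2, 7 and 6, while the count over all genes in TSC1 KO islets was 1648 with the block and 2703 without it. All genes called in adult β-cells numbered 1667 with DESeq2, 999 with edgeR and 405 to 1380 with a library left out, and in TSC1 KO islets 0 to 4015. In β-cells no paired analysis was possible because 2 neonatal columns carry the same number. The Mt3 values of the TSC1 KO table rest on 5 to 44 reads per library.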

Other observations

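Genes of the metal and oxidative stress response were called in both directions in the islet comparisons. In Db islets 2 of 12 tested were called higher and 6 lower, with a median log2 fold change of -0.31, where 24.3% of all genes were called higher and 23.9% lower. The heat shock genes Hspa1a and Hspa1b, which are near-identical copies, fell by 2.50 and 2.27, and the quinone reductase Nqo1 fell by 3.58, with a mean of 0.374 CPM in Db islets, against 4.65 CPM in BKS control islets. Hmox1, the haem oxygenase, was higher with 9.57 CPM in Db islets, against 0.931 CPM in BKS control islets (log2 3.28 ± 0.42 SE), and is named here after its value was seen. Library size alone as scaling gave 3 higher and 4 lower, and the counts were 5 to 9 with a library left out.

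In TSC1 KO islets 2 of 13 were called higher, Nqo1 (log2 1.74) and the glutamate-cysteine ligase gene Gclc (0.89), and Srxn1 fell by 1.19, a share near the 18.6% of all genes called. The call of Gclc held in 2 of 10 alternatives, over which its adjusted p in edgeR, DESeq2 and limma-voom ran from 0.0309 to 0.298. Library size alone gave 1 higher and 1 lower, and without TSC1 KO replicate 1 the count was 0. The TSC1 KO effect differed from the Db effect for 7 of 13, 4 higher and 3 lower, where 31.8% of all genes differed, with the lowest p for Nqo1 (5.23), Hmox1 (-3.67) and Srxn1 (-1.29), against 1 higher and 3 lower with library size alone. Between adult and neonatal β-cells edgeR called 0 of 13, against 2 at an unadjusted p under 0.05, 2 with DESeq2 and 1 with limma-voom.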
